A study of Mus musculus with 3 samples.

Results

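The genes described here encode the proteins of the cytosolic ribosome. Members were taken by symbol from the authors' table of normalised read counts, as every row named Rpl or Rps followed by a number and at most a short paralog suffix, together with Rplp0, Rplp1, Rplp2 and Rpsa, without rows marked as pseudogenes. This gave 85 genes of the 16610 in the table. They comprise 43 large-subunit genes, 31 small-subunit genes, the 3 genes of the ribosomal stalk and 8 paralogs of a subunit gene (Rpl3l, Rpl7l1, Rpl10l, Rpl22l1, Rpl36al, Rpl39l, Rps4l and Rps27l). The count of 43 includes Rpl32l, a low-level relative of Rpl32.

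The study sequenced RNA isolated by RiboTag pull-down from the middle section of mouse brain hemispheres. In a RiboTag pull-down chosen cells carry an epitope-tagged ribosomal protein, usually Rpl22, which is precipitated together with the transcripts on its ribosomes. Middle cerebral artery occlusion (MCAO), a stroke model in which a brain artery is blocked, lasted 1 h, and animals were killed after 3 days. There were 3 libraries, 1 per group, each a pool of 3 animals, and the series design mentions 2 technical replicates while the table holds 1 column per group. The control is the right hemisphere of animals without MCAO. The contralateral library is the right hemisphere of MCAO animals, and the MCAO hemisphere is their left one. All 3 libraries came from the pull-down. The series title names astrocytes, and the sources used here give neither the tagged protein, the Cre driver, the strain nor the age. The labels hold no left hemisphere without MCAO, so side and occlusion cannot be told apart.

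A ribosome has a small subunit that reads the mRNA and a large subunit that joins amino acids, and nearly every ribosomal protein is present as a single copy in it. The mRNAs of these proteins typically begin with a C and a run of pyrimidines, the 5′ terminal oligopyrimidine (TOP) motif, through which the kinase complex mTORC1 and the binding protein LARP1 regulate their translation together. Because RiboTag captures RNA on ribosomes, a value here reflects both how much of an mRNA the tagged cells hold and how much of it is on ribosomes. These libraries cannot separate these quantities, and fewer cells of a type and less RNA per cell cannot be told apart either.

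Depth was 25930258 to 33886604 recovered reads per library. The contralateral library stood apart in 18 male germ cell genes, whose summed normalised counts were 1566, 14368 and 1623. Here and throughout, series of 3 values are in the order control, contralateral, MCAO hemisphere, and values of a gene are normalised counts. Because each group has 1 library, no difference below has a replicate check and none was tested. A range after a ratio is its exact 95% counting interval, which holds no variation between animals. Ratios are of normalised counts, whereas medians and thresholds use the log2(value + 5) scale and the 14906 genes with a mean of at least 20. On that scale a gene is counted as higher when it is at least 25% above and as lower when it is at least 20% below the library it is compared with, the same log2 distance of 0.32 either way.

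Ribosomal protein transcripts were more abundant in both libraries from MCAO animals than in the control. They held 1.03% of all reads in the control (exact interval 1.03 to 1.04), 1.253% in the contralateral library (1.2497 to 1.257) and 1.37% in the MCAO hemisphere (1.36 to 1.37). The share was thus 1.32 times the control value in the MCAO hemisphere and 1.21 times in the contralateral library. Most members differed from the control by less than 2-fold and in the same direction, with the little-read paralogs Rpl39l, Rpl10l and Rpl3l as the exceptions in size.

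Of the 85 members 83 passed the filter on low values, Rpl3l and Rpl10l being too low. In the MCAO hemisphere 81 of the 83 exceeded the control, with a median log2 difference of 0.40 (quartiles 0.30 and 0.54), equal to 1.32-fold. The median over all 14906 genes was -0.00. By the threshold above, 61 members were higher and 1 was lower, where 19.6% of all genes were higher and 16.4% lower. Among the 8632 genes with a mean of at least 500, a level that 77 of the members reach, 12.7% were higher and 13.4% lower. No member was 2-fold higher, compared with 4.12% of all genes, and none was 2-fold lower, compared with 187 of the 14906.

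The contralateral library held most members at an intermediate level. Its median log2 difference from the control was 0.30 (quartiles 0.19 and 0.39), and again 81 of 83 members lay above the control. There were 32 members in the higher class, which held 17.2% of all genes and 7.72% of those with a mean of at least 500. None was in the lower class, which held 11% and 9.01%. Rpl39l alone was 2-fold higher, where 5.17% of all genes were. Both of these comparisons share the control library, so that a low control value of a gene enters each. As a description of the levels, the control was the lowest of the 3 libraries for 80 of 83 members and for 37.2% of all genes.

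Between the 2 hemispheres of MCAO animals the difference was smaller. The median log2 difference of the MCAO hemisphere from the contralateral library was 0.14 (quartiles 0.05 and 0.22), with 65 of 83 members above 0, while the median of all genes was -0.00. Only 6 members were higher and 2 lower, below the 12.3% and 13.5% of all genes and near the 6.16% and 3.85% of those with a mean of at least 500. At 2-fold no member was higher and 2 were lower, Rpl34 and Rpl39l, where 3.18% and 4.96% of all genes passed. The 6 higher members, Rpl11, Rpl21, Rpl22l1, Rpl41, Rps19 and Rps27l, were also in the higher class against the control, and Rpl34 was in the lower class against both right hemispheres. Of all genes 8.95% were higher and 6.27% lower than in both. In 63 members the levels ran control, contralateral, MCAO hemisphere from low to high, and in 17 the contralateral value was the highest and the control the lowest.

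**Figure D1:**
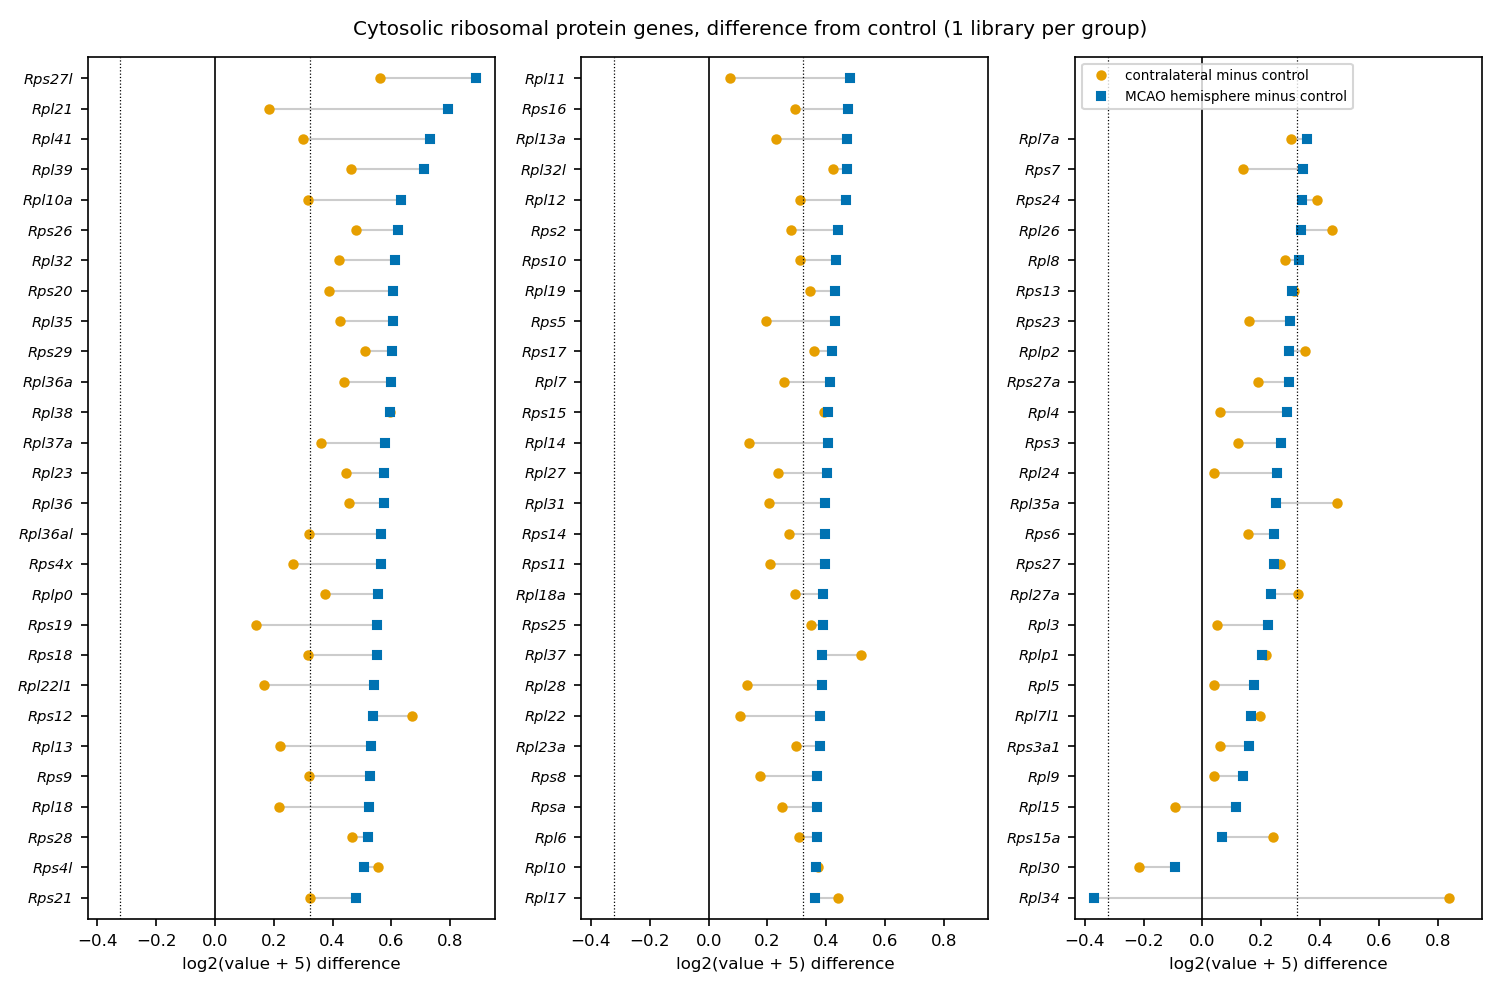
Log2(value + 5) difference from the control for 82 members past the filter, with the contralateral library as circles and the MCAO hemisphere as squares, 1 library per group and no error bars. Dotted lines mark the threshold of 0.32 in either direction, and Rpl39l is left off because its contralateral difference of 3.91 would compress the axis. Nearly all points lie to the right of 0, and Rpl34 and Rpl30 are the members whose MCAO hemisphere value lies to the left.

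**Figure D2:**
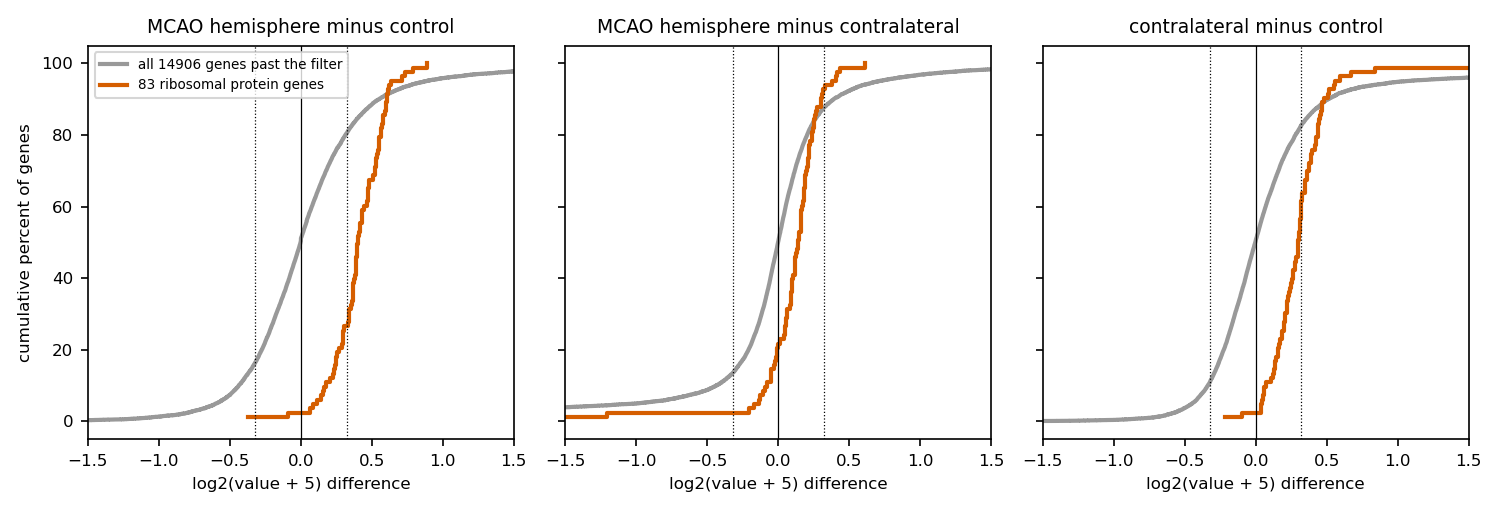
Cumulative percent of genes against the log2(value + 5) difference in each of the 3 comparisons, for all 14906 genes and for the 83 members, with dotted lines at the threshold of 0.32. The member medians lie to the right of those of all genes, at 0.40 and 0.30 against the control and 0.14 between the hemispheres of MCAO animals. The member curve is also steeper and crosses that of all genes at its upper end, which between these hemispheres lies below the threshold. The axis is limited, so Rpl39l lies outside it.

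The small and large subunits differed little from each other. The 43 large-subunit genes had a median log2 difference of 0.40 from the control in the MCAO hemisphere, with 33 in the higher class, and the 31 small-subunit genes had 0.41, with 23. In the contralateral library the medians were 0.30 and 0.28. The 3 members with the most reads lay below the family median in the MCAO hemisphere. Rpl4, a large-subunit protein that lines the exit tunnel (chromosome 9, 64173387 to 64178562), gave 16358, 17065 and 19952, a ratio of 1.22 between the MCAO hemisphere and the control (1.19 to 1.246). Rpl3, which reaches toward the catalytic centre of the large subunit (chromosome 15, 80077781 to 80083406), gave 12864, 13311.5 and 15015, a ratio of 1.17 (1.14 to 1.20). Rpsa, the small-subunit protein also known as a laminin receptor (chromosome 9, 120127766 to 120132369), gave 11746, 13975 and 15164, a ratio of 1.29 (1.26 to 1.32). In all 3 the control was lowest and the MCAO hemisphere highest.

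Among large-subunit genes, Rpl21 (chromosome 5, 146832890 to 146837032) gave 1382, 1569.6 and 2398. Its MCAO hemisphere value exceeded the control 1.74-fold (1.62 to 1.86) and the contralateral library 1.53-fold (1.43 to 1.63), so most of its difference lay between the hemispheres of MCAO animals. Rpl41, which encodes a very short basic peptide (chromosome 10, 128548110 to 128549168), gave 3891, 4792 and 6467, with a ratio to the control of 1.66 (1.595 to 1.73). Rpl39, another very small protein, located in the exit tunnel (chromosome X, 37082518 to 37085222), gave 1701, 2347 and 2788, and its ratio was 1.64 (1.54 to 1.74). Rpl10a (chromosome 17, 28328471 to 28331033) gave 3295, 4106 and 5114, and its ratio was 1.55 (1.48 to 1.62). Unlike Rpl21, both Rpl39 and Rpl10a were well above the control in the contralateral library already, with ratios of 1.38 (1.30 to 1.47) and 1.246 (1.19 to 1.30).

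Rpl5 and Rpl11 travel together with the 5S ribosomal RNA into the large subunit, and outside the ribosome this complex binds the p53 regulator Mdm2. Their transcripts differed from the control by unlike amounts. Rpl11 (chromosome 4, 136049354 to 136053393) gave 5519, 5801 and 7699.8, and in the MCAO hemisphere it exceeded the control 1.40-fold (1.35 to 1.45) and the contralateral library 1.33-fold (1.28 to 1.37). Rpl5 (chromosome 5, 107900508 to 107909005) gave 9983, 10265 and 11277, a ratio to the control of 1.13 (1.10 to 1.16). The contralateral values were close to the control for both, with ratios of 1.05 for Rpl11 (1.01 to 1.09) and 1.03 for Rpl5.

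Rps19, a small-subunit protein mutated in the inherited anaemia Diamond-Blackfan syndrome (chromosome 7, 24884592 to 24889811), had a pattern like that of Rpl11, with values of 2953, 3254 and 4335. The MCAO hemisphere exceeded the control 1.47-fold (1.40 to 1.54) and the contralateral library 1.33-fold (1.27 to 1.39). Rps4x, an X-linked small-subunit protein (chromosome X, 102184941 to 102189391), gave 6913, 8308 and 10224, a ratio to the control of 1.48 (1.43 to 1.53). Rps6, the small-subunit protein phosphorylated by S6 kinases downstream of mTORC1 (chromosome 4, 86854099 to 86857367), was named after its values were seen. It gave 6491, 7227 and 7689, and its ratio of 1.18 (1.14 to 1.23) lay below the family median.

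Another pattern had the contralateral library as high as the MCAO hemisphere or higher. Rps12 (chromosome 10, 23785183 to 23787383) gave 1281, 2042 and 1863, so that the contralateral value was 1.59 times the control (1.49 to 1.71). Rpl38, a large-subunit protein known for its part in translating Hox mRNAs (chromosome 11, 114667818 to 114672333), gave 2116, 3199 and 3197, with a contralateral ratio of 1.51 (1.43 to 1.59). Both thus stood above the control on either side of the brain of MCAO animals. Rpl37 (chromosome 15, 5116613 to 5119140) gave 2561, 3671 and 3348, and its MCAO hemisphere value was 0.912 of the contralateral one (0.869 to 0.957). Rpl35a (chromosome 16, 33056453 to 33060189) gave 1444, 1987 and 1717, with a ratio of 0.864 (0.809 to 0.924). In both genes the control was still the lowest of the 3 libraries.

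The stalk, where elongation factors dock, consists of the scaffold protein encoded by Rplp0 and the dimers encoded by Rplp1 and Rplp2. Rplp0 (chromosome 5, 115559467 to 115563729) gave 4233, 5494 and 6215, a ratio of the MCAO hemisphere to the control of 1.47 (1.41 to 1.53). Rplp1 (chromosome 9, 61913283 to 61914510) gave 8689, 10100.5 and 9995, a ratio of 1.15 (1.12 to 1.18). Rplp2 (chromosome 7, 141447651 to 141451359) gave 2699, 3439.9 and 3315, a ratio of 1.23 (1.16 to 1.29). The scaffold gene was further above the control than either dimer gene in the MCAO hemisphere, and the dimer genes did not exceed their contralateral values.

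Few members departed from the family. Rpl30 (chromosome 15, 34440505 to 34443276) gave 249, 214 and 233, and its ratios to the control were 0.936 in the MCAO hemisphere (0.773 to 1.13) and 0.859 in the contralateral library (0.718 to 1.03), both within counting error. Rpl15 (chromosome 14, 18267823 to 18270986) gave 3715, 3482 and 4025, and its contralateral value was 0.937 of the control (0.896 to 0.980). Rpl24 (chromosome 16, 55966275 to 55971437), with 4112, 4228 and 4907, and Rpl9 (chromosome 5, 65388364 to 65391431), with 7176, 7381 and 7899, each had a contralateral ratio of 1.03. These 4 and Rpl5 were the lowest members of that comparison. Rpl34 (chromosome 3, 130726827 to 130730398) gave 144, 262 and 111. Its MCAO hemisphere value was 0.766 of the control (0.585 to 0.999), the lowest ratio among the 83 members, and 0.422 of the contralateral value (0.331 to 0.535), where only Rpl39l was lower.

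Rpl34, Rps15a and other members, among them Rps19, Rplp2 and Rps27, have retrocopies in the table. These are processed copies of their transcripts, and reads could be assigned to either row. Rpl34-ps1, on chromosome 6 (71124589 to 71125001), is listed at 1014, 1332 and 1497. How reads were divided was not tested, and with Rpl34-ps1 added the log2 difference of Rpl34 from the control changed from -0.37 to 0.47 in the MCAO hemisphere and from 0.84 to 0.46 in the contralateral library. Rps15a (chromosome 7, 118104374 to 118116147) gave 2386, 2819.7 and 2497, a ratio of the MCAO hemisphere to the control of 1.05 (0.987 to 1.11). With Rps15a-ps4 and Rps15a-ps6 added its log2 difference changed from 0.07 to 0.26. With Rpl37rt added Rpl37 changed from 0.386 to 0.388 in the MCAO hemisphere and from 0.52 to 0.44 in the contralateral library. Its log2 difference between the hemispheres of MCAO animals changed from -0.13 to -0.05. The extent thus differed between genes, and single values of members with processed copies are uncertain.

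The member nearest above the threshold for the MCAO hemisphere against the control was Rpl8, at a log2 difference of 0.33, and the nearest below was Rps13, at 0.30. For the contralateral library against the control these were Rps21 and Rps9, both at 0.32 after rounding, and between the hemispheres of MCAO animals Rps27l at 0.33 and Rpl10a at 0.32. Counts past the threshold thus depend on where it is drawn. With values scaled to the total of recovered reads in place of the authors' size factors, 45 contralateral values were in the higher class against the control instead of 32.

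Paralog genes provide alternative versions of a subunit protein, and the pairs below differ in whether paralog and relative stood above the control by the same amount. Sequence around the annotated RefSeq start is shown for 3 such pairs, and for Rpl38 and Rpl15, near the high and low ends of the contralateral comparison. Each line runs from 10 bases before the start to the base at +20 (GRCm38.p6, 5′ to 3′ on the gene's strand). Capitals mark a TOP-like run, a C followed by at least 4 further C or T bases, whose first base lies within 5 bases of the start.
Rps27 (chr3:90213629-90213658, minus strand): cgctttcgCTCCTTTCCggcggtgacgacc
Rps27l (chr9:66946076-66946105, plus strand): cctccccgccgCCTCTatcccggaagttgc
Rpl22 (chr4:152325716-152325745, plus strand): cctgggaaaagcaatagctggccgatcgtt
Rpl22l1 (chr3:28805498-28805527, plus strand): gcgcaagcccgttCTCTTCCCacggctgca
Rpl39 (chrX:37085203-37085232, minus strand): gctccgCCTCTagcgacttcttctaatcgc
Rpl39l (chr16:10170218-10170247, plus strand): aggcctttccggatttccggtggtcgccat
Rpl38 (chr11:114668570-114668599, plus strand): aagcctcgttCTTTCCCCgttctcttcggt
Rpl15 (chr14:18270967-18270996, minus strand): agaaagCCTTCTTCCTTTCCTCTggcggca

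Of the 85 members 65 were in the RefSeq promoter table, and 30 of these (46.2%) held such a run on the gene's strand at one or more listed starts, compared with 22.3% of the 11328 tested genes in that table. On the opposite strand the shares were 13.8% and 26.3%. A run outside this window is missed, and for Rpl22 and Rps27l the table holds another start that carries no run. Members with and without a run stood above the control by similar amounts. The medians in the MCAO hemisphere were 0.43 for the 30 members with a run and 0.39 for the 33 without one that passed the filter, and in the contralateral library 0.31 and 0.30. Rpl15 and Rpl38 both carry such a run.

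Rps27l, a paralog of Rps27 known as a p53 target (chromosome 9, 66944624 to 66949522), had the highest ratio to the control of the 83 members in the MCAO hemisphere. It gave 282, 418 and 526, a ratio of 1.87 (1.61 to 2.17). Rps27 itself (chromosome 3, 90212667 to 90213648) gave 1412, 1696 and 1671, a ratio of 1.18 (1.10 to 1.27). Of the reads of this pair, 16.6% were from Rps27l in the control (14.9 to 18.5), 19.8% in the contralateral library (18.2 to 21.4) and 23.9% in the MCAO hemisphere (22.0 to 25.9). The interval of the MCAO hemisphere lay above both others. A retrocopy of Rps27, Rps27rt, is listed at 1519, 1861 and 1842, above Rps27 itself, and reads could be assigned to either row. Its reads are not counted in these shares, which would be lower with them. How reads were divided was not tested.

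Rpl22, the usual RiboTag protein (chromosome 4, 152324436 to 152334082), gave 2466, 2655 and 3205. Its ratios to the control were 1.30 in the MCAO hemisphere (1.23 to 1.37) and 1.08 in the contralateral library (1.02 to 1.14), next to family medians of 1.32-fold and 1.23-fold. Counts per gene do not separate a tagged from an untagged Rpl22 transcript. Its paralog Rpl22l1 (chromosome 3, 28805508 to 28807424), whose level is known to respond to that of Rpl22, gave 1262, 1417 and 1839.7, with ratios of 1.46 (1.35 to 1.57) and 1.12 (1.04 to 1.21). Rpl22l1 held 33.9% of the pair's reads in the control (32.4 to 35.4), 34.8% in the contralateral library (33.4 to 36.2) and 36.5% in the MCAO hemisphere (35.0 to 37.9), with overlapping intervals.

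Rpl39l and Rpl10l, paralogs known from male germ cells, were found almost only in the contralateral library. Rpl39l (chromosome 16, 10170197 to 10174911) gave 1.94, 99.4 and 2.35, resting on 2, 112 and 2 reads. The contralateral value was 51.3 times the control (13.9 to 429), and the gene passed the filter through that library alone. Rpl10l, a copy of the X-linked Rpl10 (chromosome 12, 66283379 to 66284401), was listed at the minimum of 1 in the control and in the MCAO hemisphere and at 56.8 in the contralateral library. Against a floor of 3 reads per library this was at least 19.5-fold higher than the control and at least 16.1-fold higher than the MCAO hemisphere.

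Their relatives showed no such difference, with Rpl39 at 1701, 2347 and 2788 and Rpl10 (chromosome X, 74270816 to 74273135) at 3319, 4299 and 4276. The male germ cell list was chosen with this library's values known, and 12 of its 18 genes passed the filter through it alone, so its level there is a description. Prm2, a sperm protamine gene, gave 5.81, 1647 and 2.35. In the control 5 genes of the list, Tnp2, Crisp2, Odf1, Acrv1 and Pgk2, were listed at the minimum. How many reads of the other members came with those transcripts was not tested. Rpl39l and Rpl10l held 4.06% (3.36 to 4.87) and 1.30% (1.01 to 1.66) of their pairs' reads there.

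In the remaining pairs the shares differed by at most a few percentage points. Rpl36al (chromosome 12, 69182734 to 69184067) gave 1546, 1929 and 2291 beside 1750.1, 2372 and 2655 of the X-linked Rpl36a (chromosome X, 134585654 to 134588062), and held 46.9%, 44.9% and 46.3% of the pair's reads. Rps4l (chromosome 6, 148354656 to 148355596) gave 248, 366 and 354 and held 3.46%, 4.22% and 3.35% of its pair with Rps4x. Rpl7l1 (chromosome 17, 46773907 to 46782656) gave 1509, 1731 and 1691, and Rpl7 (chromosome 1, 16101295 to 16104433) gave 7047, 8425 and 9390.1. The share of Rpl7l1 was lowest in the MCAO hemisphere, at 15.3% (14.5 to 16.0) compared with 17.6% in the control (16.8 to 18.4). Rpl3l, known from skeletal and heart muscle (chromosome 17, 24727826 to 24736143), rested on 11, 9 and 2 reads, too few to rank the libraries.

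**Figure D3:**
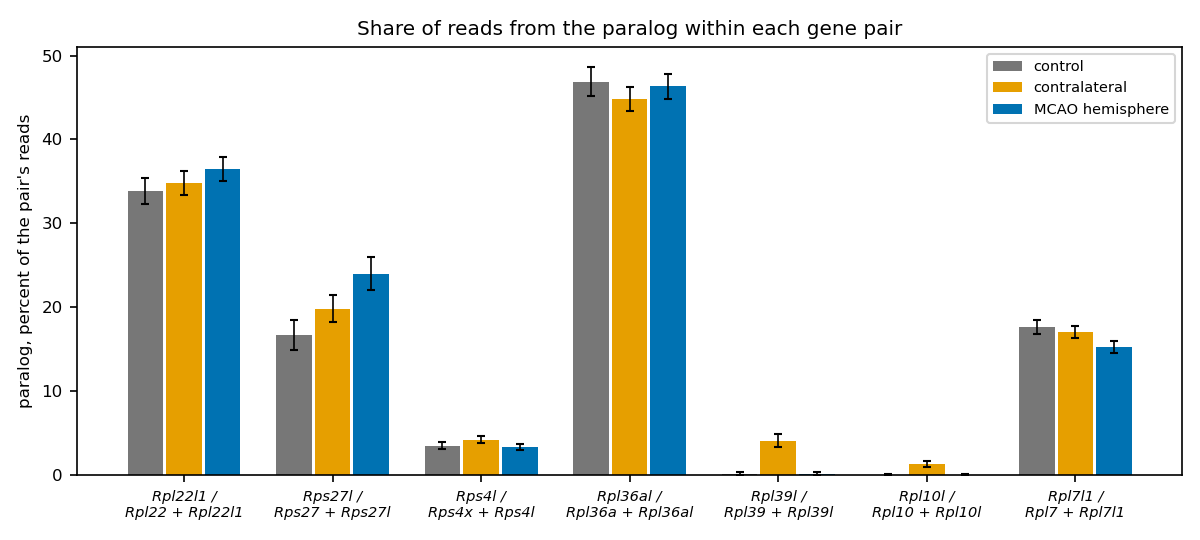
Percent of a gene pair's reads that came from the paralog in the control, contralateral and MCAO hemisphere libraries, with exact 95% counting intervals and 1 library per bar. Rps27l stands at 16.6%, 19.8% and 23.9% of its pair, without the reads of the retrocopy Rps27rt. Rpl39l and Rpl10l are above 1% only in the contralateral library.

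Other ribosomal components are encoded by genes named otherwise. Fau, which encodes a small-subunit protein fused to a ubiquitin-like one, gave 5393, 5752 and 7019.96, a ratio of the MCAO hemisphere to the control of 1.30 (1.255 to 1.35). Rack1, a scaffold on the small subunit, gave 7252, 8007 and 8996, a ratio of 1.24 (1.20 to 1.28), just below the threshold.

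Other genes of translation lay nearer to the control. The list of 16 other genes with TOP mRNAs held 5 elongation factor genes, 6 initiation factor subunits and 5 others. In the MCAO hemisphere 8 were higher and none lower, none of the 8 being an initiation factor, with a median log2 difference from the control of 0.27, and of 0.11 in the contralateral library. The elongation factor subunit gene Eef1b2 gave 4799.9, 5537 and 6522, and Tpt1, the translationally controlled tumour protein, gave 11010.0, 13291 and 14862. The poly(A)-binding protein gene Pabpc1 gave 4098, 5362 and 5483, and the RNA-binding protein gene Hnrnpa1 gave 3986, 3885 and 5772. Over 29 further initiation factor genes the medians were 0.10 and 0.14. None was lower in the MCAO hemisphere and 4 (13.8%) were higher. That share is below the 19.6% of all genes and near the 12.7% of those with a mean of at least 500, so the 4 genes are named as a description. These were Eif5b, which joins the subunits, at 6300.2, 7952 and 11140.4, Eif3a at 13707, 17329 and 21673, Eif2s2, a subunit of the factor that carries the initiator tRNA, at 1597, 2165 and 2371, and Eif1b at 2321, 3356 and 3286.

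Of 40 ribosome biogenesis genes 8 were higher in the MCAO hemisphere and none lower, with a median of 0.12, and of 0.09 in the contralateral library. A share of 8 in 40 is close to that of all genes. Ncl, the nucleolar protein nucleolin, gave 10875, 12347 and 19217, a ratio to the control of 1.77 (1.72 to 1.81), and the nucleolar GTPase gene Gnl3 gave 338, 508 and 514. The assembly factor genes Pno1 and Nop10 gave 651, 796 and 932, and 453, 578 and 635. Of 16 genes of mTORC1 and TOP control 4 (25%) were higher and 3 (18.75%) lower, with a median of 0.03. These shares are near the 19.6% and 16.4% of all genes. Eif4ebp1, an inhibitor of cap-dependent translation controlled by mTORC1, gave 83.3, 106 and 194, a ratio of 2.33 (1.78 to 3.06). The related Eif4ebp2 lay below the control, at 388, 349 and 256, or 0.660 (0.557 to 0.781). The S6 kinase gene Rps6kb2 gave 141, 195 and 232, and Myc, a transcription factor that drives ribosome production, gave 138, 126 and 221.

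Mitochondrial ribosomal proteins serve a separate ribosome. Of 77 genes 31 (40.3%) were higher in the MCAO hemisphere than in the control and none lower, where 19.6% of all genes were higher, and their median log2 difference was 0.24. In the contralateral library 19 (24.7%) were higher and none lower, where 17.2% of all genes were higher, with a median of 0.23. The other 46 and 58 did not pass, and 19 and 14 lay below 0. Between the hemispheres of MCAO animals their median was 0.01. Mrps6 gave 621, 1049.6 and 2371, the highest ratio to the control in the list, at 3.82 (3.49 to 4.18). Mrpl52 followed at 400.0, 524 and 733, Mrps28 at 268, 375 and 434, and Mrpl34 at 358, 487 and 561. A list of oxidative phosphorylation subunits, added after the values were seen, had medians of 0.28 and 0.22 over 83 genes in the MCAO hemisphere and contralateral library. Of these, 39 and 32 were higher and none lower, beside 61 and 32 of the 83 cytosolic ribosomal protein genes. Whether the cytosolic ribosomal protein genes differ from these lists was not tested.

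**Figure D4:**
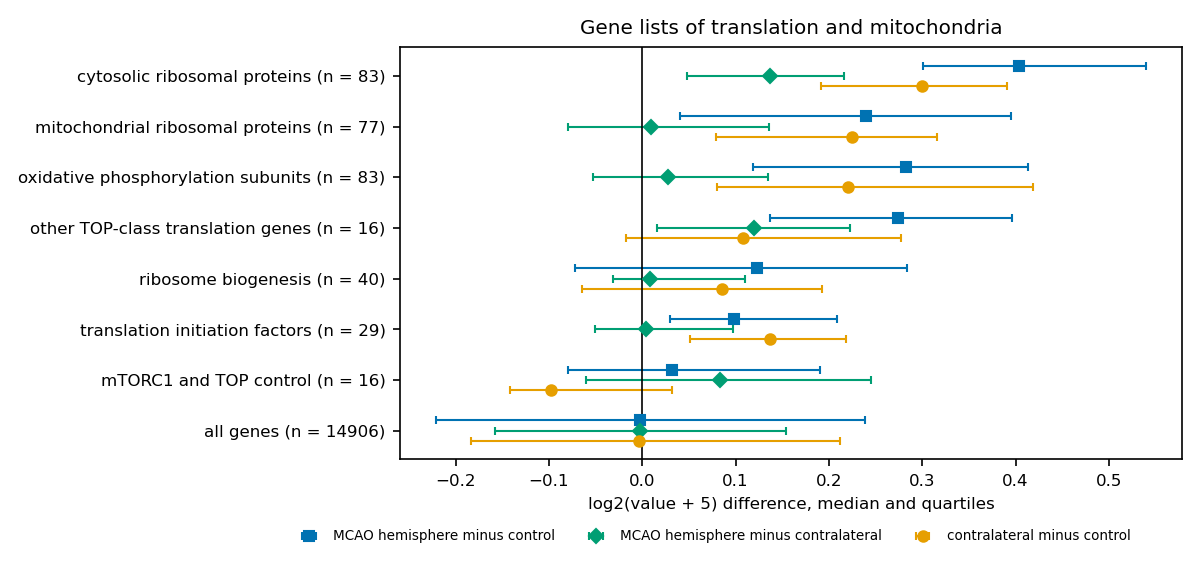
Median log2(value + 5) difference of each gene list in the 3 comparisons, with lines from the lower to the upper quartile over genes, which describe the spread between genes and not between animals. Against the control, cytosolic ribosomal proteins lie at 0.40 in the MCAO hemisphere and 0.30 in the contralateral library, mitochondrial ribosomal proteins at 0.24 and 0.23, and all genes at about 0.

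Markers of cell types differed between the libraries as well. Of all genes, 19.6% were higher and 16.4% lower than the control in the MCAO hemisphere, and 17.2% were higher in the contralateral library. Of 12 microglia genes 10 were higher in the MCAO hemisphere than in the control, and the list summed to 10268, 10399 and 30972. All 8 macrophage and activated myeloid genes past the filter were higher, and the 10 in the list summed to 709, 1023 and 13739. In the contralateral library, where ribosomal protein genes were already above the control, the microglia sum was near that of the control. Of 12 astrocyte genes 4 (33.3%) were higher and 2 (16.7%) lower in the MCAO hemisphere, the latter near the share of all genes. Contralaterally 5 (41.7%) were higher. The astrocyte list summed to 478221, 503450 and 516573. Gfap, the filament protein of reactive astrocytes, gave 5903, 12202 and 76049, a ratio to the control of 12.9 (12.5 to 13.2), and without it the sums were 472318, 491248 and 440524, the MCAO hemisphere then being the lowest. The 2 lower genes were those of the glutamate transporters, Slc1a2 and Slc1a3, with ratios of 0.749 and 0.695 in the MCAO hemisphere. Both are abundant and weigh on these sums, Slc1a2 giving 156489, 125890 and 117197. The higher genes beside Gfap were Sox9 at 1.72, Aldh1l1 at 1.37 and S100b at 1.32, and 8 of the 12 lay above 0. The median log2 difference of the astrocyte list from the control was 0.25 in both libraries from MCAO animals. Of 12 neuron genes 1 (8.33%) was higher and 1 (8.33%) lower in the MCAO hemisphere, both below the shares of all genes. Their medians were -0.19 in the MCAO hemisphere and -0.12 in the contralateral library. Neuron sums were 229226, 203696 and 197915, so neuron transcripts were present in every pull-down. Oligodendrocyte sums were 130583, 109400.0 and 164072, and endothelial and mural sums 2630.5, 2105 and 2587. The part of these cell types in the ribosomal protein result was not tested.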

How the data were processed

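The authors deposited 1 table of normalised read counts, a signal made by dividing read counts by a size factor per library. Tools named in the submitters' processing notes, without roles, are Partek 6.6, HISAT2 2.0.11, CASAVA 1.8, DESeq2 and R 3.3.1, and the build is mm10. The lowest value listed is 1, and strand is not given in the sources used here. Columns were matched to libraries by sample description. The value of 1 read per library was found from the steps between low values, and 99.9% of values above 1 were whole within 0.1 read. Exact Clopper-Pearson intervals came from these reads, which may include PCR duplicates, so they cover counting error only.

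Differences used a pseudocount of 5 and genes with a mean of at least 20. The procedure was tested on simulated reads. Python 3.11.15, numpy 2.4.6, pandas 2.3.3 and scipy 1.17.1 were used. Named members were the 5 highest and 5 lowest of each comparison, those nearest the threshold, the 3 with the most reads, all paralogs with their relatives, the stalk genes, Rpl22 and Rpsa, and up to 4 genes of each other translation list. Members and lists were chosen with earlier results of these data known. Coordinates and sequences come from RefSeq tables for GRCm38.p6, the assembly called mm10, and all 85 members matched a gene there. Gene lengths were not used, so shares of a pair's reads, and levels of different genes set beside each other, are not corrected for length. Alternatives were other pseudocounts, filters, scalings, thresholds and members. A gene that the naming rule selects is not reported here.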

Additional observations from a re-analysis of the deposited data

How the results depend on the processing

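The median log2 difference of the members lay between 0.39 and 0.44 for the MCAO hemisphere against the control, between 0.30 and 0.35 for the contralateral library against the control, and between 0.12 and 0.14 between the hemispheres of MCAO animals, under pseudocounts of 1 and 20, without the filter, under 4 other scalings, without the paralogs and with retrocopies added. Members lower in the MCAO hemisphere than in the control numbered 2 without the filter and 0 with retrocopies added, in place of 1. Those lower than contralaterally numbered 4 without the filter, 1 without the paralogs and 1 with retrocopies added, in place of 2, and those lower than in both right hemispheres numbered 2 and 0 in place of 1. At a 2-fold threshold 0 members were higher or lower than the control in the MCAO hemisphere, 0 were higher than contralaterally, 0 were above or below both right hemispheres, and 1 contralateral value was higher than its control. Adding retrocopies, and a filter on the control and MCAO hemisphere alone, were chosen after seeing the data. The former turned Rpl34 to 0.47 relative to the control and to 0.0130 relative to the contralateral value. The share of reads was 1.02%, 1.23% and 1.35% without the paralogs and 1.13%, 1.38% and 1.50% without the 20 genes with the most reads in each library, in the order control, contralateral, MCAO hemisphere. Replicates could not be left out. No paired analysis was possible because each group has 1 library. Depth limits Rpl3l, Rpl10l, Rpl39l and Rpl32l.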

Other observations

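Rows that share the Rpl or Rps prefix but are not ribosomal protein genes of the list were also read. All 9 retrocopy rows lay above 0 against the control in the MCAO hemisphere, and 7 were in the higher class, which held 19.6% of all genes. Ratios ran from 1.21 for Rps27rt (1.13 to 1.30) to 1.87 for Rps15a-ps4 (1.53 to 2.28). Reads could be assigned to a retrocopy or to its parent, which was not tested, so these rows are not separate evidence. Rps15a-ps4 gave normalised counts of 166, 323 and 309, again ordered control, contralateral, MCAO hemisphere, and Rpl31-ps12 gave 1621, 1948 and 2342.

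Of 10 rows of ribosomal protein S6 kinases and their relatives, 3 were in the lower class against the control in the MCAO hemisphere and 1 in the higher class, where 16.4% and 19.6% of all genes were. Rps6kb1, encoding the S6 kinase that acts below mTORC1, gave 1536, 1238 and 1188, a ratio of 0.773 (0.714 to 0.837), while its relative Rps6kb2 had a ratio of 1.64 (1.32 to 2.04). Rps6ka2, an RSK kinase of the MAP kinase pathway, gave 2743, 2199 and 1907, or 0.695 (0.654 to 0.739), and Rps6ka5 gave 721, 685 and 534, or 0.741 (0.658 to 0.834). The other 6 did not pass. These genes were chosen by their prefix after the values were seen, and none of these differences has a replicate check.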
